A study of Mus musculus with 16 samples.

Results

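Htra3, Gas7, Nlrp6, Hyi, Khdrbs3 and Stxbp6 were followed as a set of 6 genes, picked by symbol out of 23279 in the deposited expression table because they were listed as higher in mouse pre-B cells carrying BCR-ABL1 than in cells without it. The question was whether loss of SHP2 alone, in cells without BCR-ABL1, brings each gene part of the way to its level with BCR-ABL1. Htra3, Nlrp6, Gas7 and Hyi rose with loss of SHP2 alone, a result already known for Htra3, Nlrp6 and Hyi when the genes were picked. The mean level with BCR-ABL1 in SHP2 wild-type cells, divided by the mean after SHP2 loss alone, was 0.991 for Htra3, 1.02 for Nlrp6 and 1.5 for Gas7. Khdrbs3 and Stxbp6 did not pass the test, with ratios of 2.93 and 1.73. Without null replicate 2, a library that stands apart, the ratios were 1.19 for Htra3, 1.23 for Nlrp6, 1.43 for Gas7, 3.42 for Khdrbs3 and 2.73 for Stxbp6. Hyi was listed as higher with BCR-ABL1, but its mean in SHP2 wild-type cells was 0.979 of that without it. Its rise with SHP2 loss passed without BCR-ABL1 and fell short with it.

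BCR-ABL1 joins ABL1 to part of BCR, which leaves the kinase always switched on, and drives a form of B-lineage acute lymphoblastic leukaemia. SHP2, the product of Ptpn11, is a tyrosine phosphatase through which many receptors activate the RAS and ERK pathway. PolyA RNA of 16 libraries of pre-B cells, 4 per group, was sequenced in a crossed design. The groups were BCR-ABL NULL (-/-) with SHP2 WT (+/+), BCR-ABL NULL (-/-) with SHP2 NULL (-/-), BCR-ABL WT (+/+) with SHP2 WT (+/+) and BCR-ABL WT (+/+) with SHP2 NULL (-/-). Here they are called wild-type and null, for SHP2, with and without BCR-ABL1. The sources used here give neither the strain, the way Ptpn11 was deleted, the way BCR-ABL1 was introduced, nor the origin of the 4 libraries of each group. If these were not separate animals or cultures, the spread behind the p-values is technical.

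The 6 genes have unrelated functions. Htra3 encodes a secreted serine protease of the HtrA family, reported to inhibit TGF-beta signalling. Gas7 encodes an F-BAR protein that binds membranes and bundles actin, best known in neurons. Nlrp6 encodes a NOD-like receptor that can assemble an inflammasome and is best known in the intestinal epithelium. Hyi is named as a hydroxypyruvate isomerase gene, Khdrbs3 encodes an RNA-binding splicing regulator of the STAR family, and Stxbp6 encodes amisyn, which binds syntaxin and holds back the SNARE complexes of vesicle fusion.

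The genes lie on 6 different chromosomes of the build GRCm38, in the GENCODE annotation. Htra3 lies on chromosome 5 (35652023 to 35679782, minus strand), 85.45 Mb from Ptpn11 on the same chromosome. Gas7 lies on chromosome 11 (67455437 to 67688990), Nlrp6 on chromosome 7 (140920902 to 140929192) and Khdrbs3 on chromosome 15 (68928420 to 69101211), each on the plus strand, and Stxbp6 on chromosome 12 (44852484 to 45074709, minus strand). Hyi lies on chromosome 4 (118359990 to 118362744, plus strand) and is annotated as a polymorphic pseudogene by GENCODE and as a transcribed pseudogene by RefSeq, while the other 5 are annotated as protein coding. None of the transcripts of the 6 genes shared a stretch of at least 100 bases at 95% identity with a transcript of another gene. Gas7 overlaps Glp2r on the opposite strand, which read at most 0.00401 FPKM in any library.

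The RefSeq promoter table held 3 of the 6 genes, namely Htra3, Nlrp6 and Stxbp6. The sequences before the starts of Htra3 and Nlrp6 are shown because these were the members with the largest rises after SHP2 loss and moved together from library to library. They run 5' to 3' from base 250 to base 51 before the RefSeq start (GRCm38.p6), Htra3 at chr5:35679831-35680030 on the minus strand and Nlrp6 at chr7:140920652-140920851 on the plus strand. Capitals mark a match to the AP-1 motif.
Htra3: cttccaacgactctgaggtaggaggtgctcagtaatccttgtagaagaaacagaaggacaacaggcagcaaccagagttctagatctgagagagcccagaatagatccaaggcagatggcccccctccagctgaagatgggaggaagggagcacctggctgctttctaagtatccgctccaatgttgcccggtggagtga
Nlrp6: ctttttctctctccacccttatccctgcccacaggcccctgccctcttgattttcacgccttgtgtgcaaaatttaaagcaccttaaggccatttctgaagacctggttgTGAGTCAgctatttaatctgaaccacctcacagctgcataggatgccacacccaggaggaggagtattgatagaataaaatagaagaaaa
Matches were sought on both strands to 5 motifs, STAT (TTCNNNGAA), FOXO (GTAAACA), ETS (CCGGAAGT), AP-1 (TGANTCA) and the E-box (CACGTG). The 1 match in the 3 promoters was TGAGTCA in Nlrp6, 140 to 134 bases before the start, and 5.57% of 32851 promoter windows held an AP-1 match. The shares of windows with a match were 5.76% for STAT, 2.58% for FOXO, 1.4% for ETS and 4.34% for the E-box. G and C made up 53% of the Htra3 window, 45.5% of the Nlrp6 window and 63.5% of the Stxbp6 window, beside a median of 51.5%.

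Values are FPKM, the fragments assigned to a gene per kilobase of its transcript after scaling to library size, and since counts were not used here the depth is unknown. Ptpn11 read 2.87 to 7.43 FPKM in the 8 null libraries and 15.7 to 18 FPKM in the 8 wild-type libraries, with no overlap. The labelled cell type was checked against 13 early B-lineage markers, led by Igll1, Vpreb1 and Cd79b, and 13 of 13 were at 1 FPKM or more in at least 1 library of every group, summing to 2071 to 2779 FPKM. Stromal markers summed to at most 2.12 FPKM, with Lum at 0 in all libraries, and erythroid and megakaryocyte markers to at most 0.991 FPKM. T and NK markers, led by Lck, summed to 20.6 to 35.1 FPKM, and the 7 besides Lck were below 1 FPKM in every library. Neuronal markers, led by Tubb3, summed to 37.1 to 70.3 FPKM in wild-type and 43.9 to 93.9 FPKM in null cells without BCR-ABL1. With BCR-ABL1 the neuronal sums were 20.2 to 31.4 and 19.9 to 32.8 FPKM. The 4 neuronal markers besides Tubb3 were below 1 FPKM in every library. Intestinal epithelium markers, led by Epcam, summed to 4.51 to 12.1 FPKM in wild-type and 2.75 to 10.2 FPKM in null cells without BCR-ABL1. With BCR-ABL1 their sums were 2.02 to 4.19 and 1.87 to 2.53 FPKM. The 5 besides Epcam were below 1 FPKM in every library, with Krt8 and Krt20 at 0 in all libraries. A single library stood apart. The myeloid gene Lyz2 read 403 FPKM in null replicate 2 without BCR-ABL1 and at most 34.3 FPKM elsewhere, and for the 6 genes the effect of SHP2 loss without BCR-ABL1 and the interaction, as well as the called genes of other lists, are given with and without it.

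**Figure D1:**
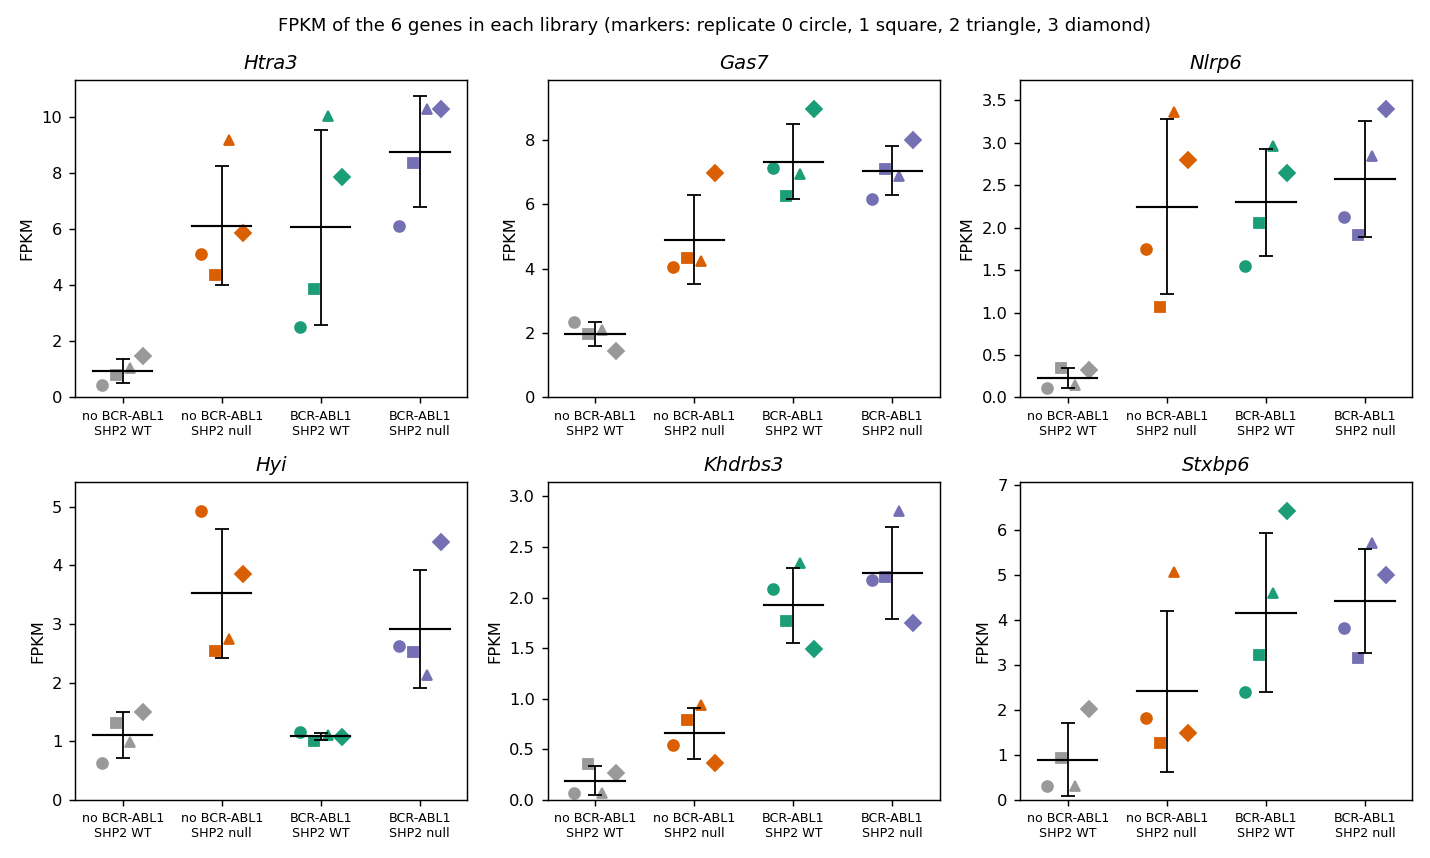
FPKM of the 6 genes (vertical axes, each from 0) in the 16 libraries by group, where a point is a library, its shape the replicate number, the long line the group mean and the bar 1 SD (n = 4). Htra3, Nlrp6, Gas7, Khdrbs3 and Stxbp6 are lowest without BCR-ABL1 in wild-type cells, while Hyi is high in both null groups and low in both wild-type groups.

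All 6 genes passed the filter of at least 1 FPKM in at least 4 libraries and were fitted with 10210 genes in limma on log2(FPKM + 1), a scale that understates the change of low genes. Khdrbs3 passed the filter through its libraries with BCR-ABL1 alone, and no wild-type library without BCR-ABL1 reached 1 FPKM for Nlrp6. Changes below are log2 differences on that scale unless given in FPKM. An adjusted p (Benjamini-Hochberg over all genes tested) below 0.05 was a call. The genes were chosen on the BCR-ABL1 difference, so this difference is described with no test. The wild-type libraries without BCR-ABL1 enter both that difference and the one for SHP2 loss, so the 2 are not independent, and a chance low value in them would raise both.

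With BCR-ABL1 in wild-type cells, 5 of the 6 genes were higher in all 4 libraries than in any wild-type library without it, beside 7.66% of all genes tested. Mean FPKM was 10.3-fold higher for Khdrbs3, 9.93-fold for Nlrp6, 6.5-fold for Htra3, 4.68-fold for Stxbp6 and 3.71-fold for Gas7. By log2 difference these 5 genes ranked between 5 and 20 of 10210, with differences of 1.75 ± 0.31 (SE) for Htra3, 1.48 ± 0.14 for Gas7, 1.48 ± 0.33 for Stxbp6, 1.41 ± 0.21 for Nlrp6 and 1.30 ± 0.13 for Khdrbs3. The sixth, Hyi, had a mean 0.979 of that without BCR-ABL1, with a log2 difference of 0.003 ± 0.182 and rank 6029.

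In SHP2-null cells Khdrbs3 was the 1 gene of the 6 whose libraries with BCR-ABL1 all lay above those without it (3.76% of all genes tested did so), with a log2 difference of 0.97 ± 0.13. The differences were 0.77 ± 0.33 for Stxbp6, 0.48 ± 0.31 for Htra3, 0.47 ± 0.14 for Gas7 and 0.18 ± 0.21 for Nlrp6. For Hyi it was -0.21 ± 0.18.

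The first test asked what SHP2 loss did in cells without BCR-ABL1. Htra3, Nlrp6, Gas7 and Hyi rose, 4 of the 6 genes, where 1.02% of all genes tested were called higher and 0.519% lower. The 6 genes had positive changes, with a median of 1.03 beside 0.0225 over all genes tested. For 5 of the 6 the null libraries all lay above the wild-type ones, as for 6.02% of all genes. The results for Htra3, Nlrp6 and Hyi were known when the genes were picked.

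Htra3, the protease gene, read 0.453, 0.792, 1.03 and 1.46 FPKM in wild-type replicates 0 to 3 without BCR-ABL1 and 5.1, 4.37, 9.18 and 5.86 FPKM in the null ones. Each null library was above every wild-type library, and null replicate 2 was the highest. The mean rose 6.56-fold, which is 1.86 ± 0.31 in log2 (SE; adjusted p = 0.00435 in limma), the rise with rank 4 of 10210. Without null replicate 2, the library high in Lyz2, the fold was 5.47 and the log2 change 1.68 ± 0.32 (adjusted p = 0.0171).

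Nlrp6, the inflammasome receptor gene, read 0.11, 0.348, 0.147 and 0.32 FPKM in the wild-type libraries and 1.75, 1.07, 3.36 and 2.8 FPKM in the null ones. The groups did not overlap, and the wild-type libraries reached at most 0.348 FPKM, so the log2 scale shortens the difference. The mean rose 9.7-fold, which is 1.35 ± 0.21 in log2 (SE; adjusted p = 0.00289 in limma), rank 7 of 10210. With a pseudocount of 0.1 FPKM it was 2.78, and without null replicate 2 the fold was 8.09 and the log2 change 1.18 ± 0.20 (adjusted p = 0.00823).

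Gas7, the F-BAR gene, read 2.35, 1.98, 2.11 and 1.45 FPKM in the wild-type libraries and 4.06, 4.32, 4.23 and 6.97 FPKM in the null ones. Of the null libraries 3 lay close together and replicate 3 lay above them. The mean rose 2.48-fold, or by 0.97 ± 0.14 in log2 (SE; adjusted p = 0.0021 in limma). The change was 0.82 ± 0.12 without null replicate 3 (adjusted p = 0.00276) and 1.02 ± 0.15 without null replicate 2 (adjusted p = 0.00364).

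Hyi read 0.622, 1.31, 0.982 and 1.51 FPKM in the wild-type libraries and 4.93, 2.55, 2.75 and 3.86 FPKM in the null ones. The groups did not overlap. The mean rose 3.19-fold, or by 1.09 ± 0.18 in log2 (SE; adjusted p = 0.00454 in limma), and 1.17 ± 0.19 without null replicate 2 (adjusted p = 0.00752). The call was lost when only the 2 groups compared were fitted (adjusted p = 0.0595).

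Khdrbs3, the splicing regulator gene, read 0.0666, 0.353, 0.0667 and 0.261 FPKM in the wild-type libraries and 0.537, 0.784, 0.937 and 0.368 FPKM in the null ones. The groups did not overlap, with 0.353 and 0.368 FPKM next to each other, and every library lay below 1 FPKM. The means were 0.187 ± 0.144 and 0.656 ± 0.253 FPKM (SD, n = 4), a log2 difference of 0.48 ± 0.13 that did not pass (SE, limma adjusted p = 0.0971), and it was 0.40 ± 0.14 without null replicate 2 (0.255). It passed with the replicate number as a block (adjusted p = 0.0321), with library weights (0.0413) and with a pseudocount of 0.1 FPKM (1.48 ± 0.33, adjusted p = 0.0326). With the block but without null replicate 2 it did not (adjusted p = 0.0918, an alternative added after the data were seen).

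Stxbp6, the amisyn gene, read 0.312, 0.922, 0.298 and 2.02 FPKM in the wild-type libraries and 1.83, 1.27, 5.07 and 1.47 FPKM in the null ones. The groups overlapped, since wild-type replicate 3 lay above 3 of the 4 null libraries. The log2 difference of 0.82 ± 0.33 did not pass (SE, limma adjusted p = 0.238), and it was 0.50 ± 0.29 without null replicate 2 (adjusted p = 0.539). Within replicate numbers the null library was higher for numbers 0, 1 and 2 and lower for number 3. For the other 5 genes it was higher for 4 of 4 numbers, which follows from their groups not overlapping and adds nothing to it.

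Null replicate 2 without BCR-ABL1 held the highest value of its group for Htra3, Nlrp6, Khdrbs3 and Stxbp6, and the lowest Ptpn11 (2.87 FPKM, against 6.02 to 7.43 FPKM in the other 3). The 8 myeloid markers in the table summed to 424 FPKM in that library, 7.78 to 38.3 FPKM in the other 3 null libraries and 7.91 to 31.1 FPKM in the wild-type ones, with Elane at 0 in all 4 wild-type libraries. With BCR-ABL1 they summed to 3.47 to 26.4 FPKM. Without BCR-ABL1, the summed mast cell markers ran from 8.24 to 14.1 FPKM for wild-type cells and from 0.254 to 13.4 FPKM for null cells, and they reached at most 3.88 FPKM with it, with Cma1, Mcpt4 and Tpsb2 at 0 in all 8 libraries. Of 3 mast cell genes tested for SHP2 loss without BCR-ABL1, 2 were at an unadjusted p below 0.05, with a list median of -1.35. Cma1 fell from 2.97 ± 0.8295 to 0.652 ± 0.768 FPKM (SD, n = 4, limma adjusted p = 0.00435, and 0.000106 without null replicate 2). Cpa3 went from 5.59 ± 1.83 to 2.05 ± 2.17 FPKM (limma adjusted p = 0.127, and 0.0288 without that library). Kit went the other way, from 0.568 ± 0.174 to 1.77 ± 2.40 FPKM (0.522), with a log2 change of -0.01 without that library. Of the 13 early B-lineage genes Il7r rose in the same comparison (log2 change 0.81, limma adjusted p = 0.00249, and 0.68 without null replicate 2, adjusted p = 0.0031), with a list median of 0.21. Of all genes tested, 1.02% were called higher there and 0.519% lower. The part of these other cell types in the members' values was not tested. In bulk samples, fewer cells of a type and less RNA per cell cannot be told apart.

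How far SHP2 loss alone carried each gene was described as the share of the BCR-ABL1 step, the rise with SHP2 loss divided by the rise with BCR-ABL1, both from the wild-type mean without BCR-ABL1. On the FPKM scale this was 101% for Htra3, 97.4% for Nlrp6, 54.6% for Gas7, 46.5% for Stxbp6 and 27% for Khdrbs3. On the log2 scale it was 106%, 95.6%, 65.4%, 55.5% and 36.6%. Leaving out each of the 12 libraries in turn moved the FPKM share between 81.3% and 136% for Htra3, 79.4% and 116% for Nlrp6, 41.7% and 60.8% for Gas7, 19.4% and 60.3% for Stxbp6 and 21.7% and 32.6% for Khdrbs3. No share is given for Hyi, whose mean did not rise with BCR-ABL1.

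The levels therefore ordered differently from gene to gene. For Htra3 the wild-type group without BCR-ABL1 was lowest at 0.935 ± 0.425 FPKM (SD, n = 4), and the null group without it (6.13 ± 2.12), the wild-type group with it (6.07 ± 3.48) and the null group with it (8.78 ± 1.98) overlapped. Within the wild-type group with BCR-ABL1, Htra3 ran from 2.52 to 10.03 FPKM, with the largest SD of the 6 genes in that group. For Nlrp6 the lowest group was at 0.232 ± 0.120 FPKM, and the others, at 2.25 ± 1.03, 2.30 ± 0.628 and 2.57 ± 0.682 FPKM in the same order, overlapped.

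Gas7 averaged 1.97 ± 0.379 FPKM, then 4.90 ± 1.38 with SHP2 loss alone, and 7.33 ± 1.16 and 7.04 ± 0.762 with BCR-ABL1 in wild-type and null cells (SD, n = 4). The top pair overlapped, and the middle group reached into them through replicate 3 alone (6.97 FPKM). Khdrbs3, whose difference with SHP2 loss alone did not pass, averaged 1.92 ± 0.368 and 2.25 ± 0.456 FPKM with BCR-ABL1, and of the 6 genes it was the 1 whose wild-type libraries with BCR-ABL1 (1.49 to 2.34 FPKM) all lay above the null libraries without it (0.368 to 0.937 FPKM), as did 2.85% of all genes tested. Stxbp6 averaged 0.888 ± 0.810, 2.41 ± 1.79, 4.16 ± 1.76 and 4.42 ± 1.15 FPKM in the same order, and each neighbouring pair overlapped. Its null group without BCR-ABL1 reached into the wild-type group with it (2.39 to 6.42 FPKM) through replicate 2 alone (5.07 FPKM), the library high in Lyz2. Hyi ran the other way, since its wild-type libraries with BCR-ABL1 (1.01 to 1.15 FPKM) all lay below the null libraries without it (2.55 to 4.93 FPKM), as did 2.76% of all genes tested.

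The next test asked what SHP2 loss did in cells that already carried BCR-ABL1. In limma 0 of the 6 genes passed (1, Hyi, at an unadjusted p below 0.05), where 0.176% of all genes tested were called higher and 0.137% lower. Gas7 read 7.12, 6.26, 6.95 and 8.98 FPKM in the wild-type libraries and 6.17, 7.1, 6.89 and 8.02 FPKM in the null ones, which overlapped throughout. Its log2 difference was -0.05, with a 95% interval of -0.35 to 0.26. For Nlrp6 the difference was 0.12 (-0.32 to 0.55), for Khdrbs3 0.15 (-0.13 to 0.43) and for Stxbp6 0.11 (-0.59 to 0.81).

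Htra3 read 2.52, 3.88, 10.03 and 7.86 FPKM in the wild-type libraries with BCR-ABL1 and 6.13, 8.38, 10.3 and 10.3 FPKM in the null ones. The null library was above the wild-type library of the same number in 4 of 4 numbers, although the groups overlapped. The share of all genes with this order is not given, so the count is a description. The log2 difference of 0.59 had an interval of -0.06 to 1.24, ran from 0.30 to 0.85 on leaving out single libraries and did not pass (adjusted p = 1 in limma, and 0.369 once the replicate number was a block).

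Hyi read 1.15, 1.01, 1.11 and 1.06 FPKM in these wild-type libraries and 2.63, 2.53, 2.13 and 4.4 FPKM in the null ones. The wild-type libraries ran from 1.01 to 1.15 FPKM, and each null library lay above them, as for 1.42% of all genes tested. The mean was 2.7-fold higher in null cells, a log2 difference of 0.88 ± 0.18 that fell short (SE, limma adjusted p = 0.0615). It passed with the replicate block (adjusted p = 0.0293), with median-ratio scaling (0.0453) and with a pseudocount of 0.1 FPKM (0.0476).

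**Figure D2:**
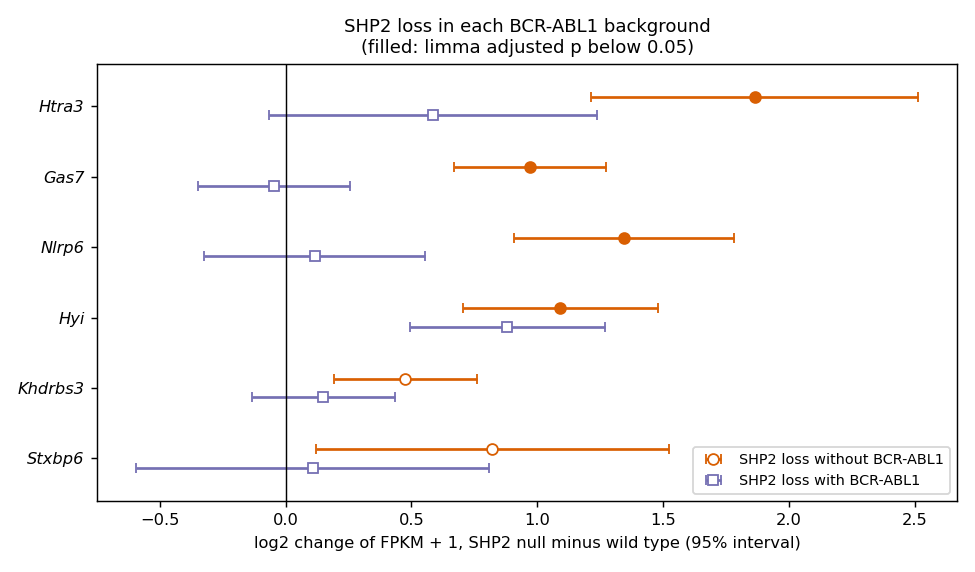
Log2 change with SHP2 loss (horizontal axis, null minus wild type on the log2(FPKM + 1) scale) for each gene without BCR-ABL1 (circles) and with it (squares), where bars are 95% intervals from limma and filled symbols passed at an adjusted p below 0.05. Htra3, Gas7, Nlrp6 and Hyi are filled without BCR-ABL1, no gene is filled with it, and only for Hyi do both intervals lie above 0.

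The difference between these 2 effects was tested as an interaction. It was negative for 6 of 6 genes, as for most genes tested (39.7% were positive), and 0 of the 6 passed in limma (3, namely Gas7, Nlrp6 and Htra3, at an unadjusted p below 0.05). No gene of the 10210 passed either (591 at an unadjusted p below 0.05, 3 called with no filter on low values and 2 with library weights). Gas7 had an interaction of -1.02 ± 0.20 (SE, limma adjusted p = 0.344), rank 4 of 10210 by p, Nlrp6 -1.23 ± 0.29 (0.552) and Htra3 -1.28 ± 0.43 (0.822). For Stxbp6 it was -0.71 ± 0.47, for Khdrbs3 -0.33 ± 0.19 and for Hyi -0.21 ± 0.26. Without null replicate 2 the interactions were -1.06 for Gas7, -1.07 for Nlrp6 (limma adjusted p = 0.739), -1.09 for Htra3, -0.39 for Stxbp6, -0.25 for Khdrbs3 and -0.29 for Hyi, and that for Hyi ran from -0.37 to -0.07 on leaving out each of the 16 libraries. A smaller SHP2 effect in BCR-ABL1 cells was therefore not established for any of the 6 genes, although the 95% intervals for Gas7 (-1.44 to -0.59), Nlrp6 (-1.85 to -0.61) and Htra3 (-2.20 to -0.36), unadjusted for the number of genes, lay below 0. The interaction equals the BCR-ABL1 difference in null cells minus that in wild-type cells, and the genes were chosen on the BCR-ABL1 difference. A choice that leaned on the difference in wild-type cells would by itself push the interaction below 0. Its sign and intervals for these genes are therefore not independent of the choice, and it shares the wild-type libraries without BCR-ABL1 with it.

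Some of the genes also varied together within groups. After the group means were removed, log2(FPKM + 1) of Htra3 and Nlrp6 correlated across the 16 libraries at Pearson r = 0.77, of Htra3 and Stxbp6 at 0.76 and of Nlrp6 and Stxbp6 at 0.73. Without null replicate 2 these were 0.72, 0.72 and 0.61. Htra3 and Gas7 stood at 0.09, and Khdrbs3 and Gas7 at -0.61. These r describe libraries that share group, replicate number and depth, and no test was made. Libraries of one number also deviated together, with the 2 highest Htra3 values of each BCR-ABL1 group in replicates 2 and 3.

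**Figure D3:**
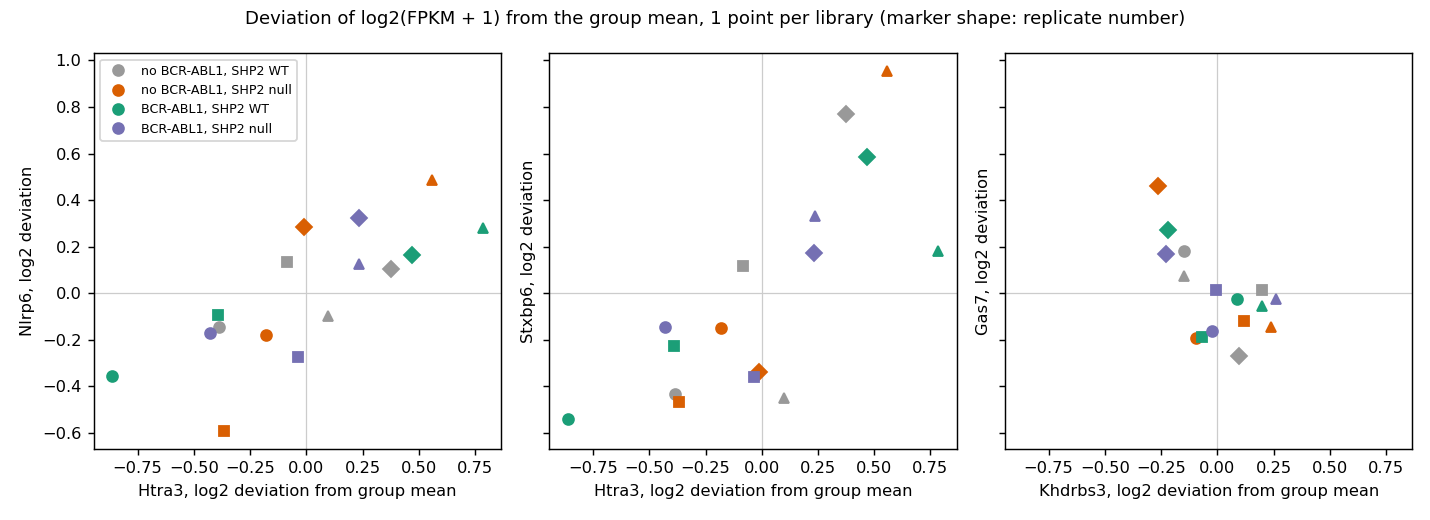
Deviation of log2(FPKM + 1) from the group mean for 3 pairs of genes, where a point is a library, its colour the group and its shape the replicate number. Htra3 runs with Nlrp6 (r = 0.77) and with Stxbp6 (0.76), while Khdrbs3 and Gas7 run in opposite directions (-0.61).

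The 3 genes most like each member were named by the highest Pearson r of log2(FPKM + 1) over the 16 libraries, a description in which the group differences carry much of the value. For Htra3 these were Nuak1 (0.95), a kinase gene, Slc16a14 (0.95) and H2-K1 (0.94). For Nlrp6 they were H2-K1 (0.97), Ccdc42 (0.97) and the non-muscle myosin gene Myh10 (0.96). H2-K1, a class I histocompatibility gene whose relatives may share reads, is uncertain and averaged 185 ± 17.5 and 309 ± 78.7 FPKM in wild-type and null cells without BCR-ABL1 and 304 ± 34 and 333 ± 51.6 FPKM with it (SD, n = 4). Ccdc42 and Myh10 lie on chromosome 11 at 68587021 to 68597966 and 68691559 to 68816632, the chromosome of Gas7 and not of Nlrp6.

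For Gas7 the most alike were the cyclin-dependent kinase inhibitor gene Cdkn2d (0.93), H2-T10 (0.92) and Rasa3 (0.92), which encodes a RAS GTPase-activating protein. H2-T10 is annotated as a polymorphic pseudogene by GENCODE and as a transcribed pseudogene by RefSeq. Like H2-K1 it may share reads with its relatives and is uncertain. For Khdrbs3 they were D4Wsu53e (0.97), the interleukin 7 receptor gene Il7r (0.96) and Rab31 (0.95). Il7r averaged 6.29, 11.9, 25.3 and 25.0 FPKM in the order of the groups used above, so that its mean with SHP2 loss alone lay between that of wild-type cells without BCR-ABL1 and the means with it. For Stxbp6 they were the interferon-induced gene Ifitm3 (0.97), Gng4 (0.94) and Cacnb2 (0.94).

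For Hyi the 3 were Vps33a (0.92), Plod3 (0.89) and Coq5 (0.86), and all 3 lie on chromosome 5 at 2.34, 15.8 and 5.83 Mb from Ptpn11, while Hyi is on chromosome 4. Vps33a, which encodes a vesicle tethering protein, averaged 9.11 ± 0.306 and 12.6 ± 0.487 FPKM in wild-type and null cells without BCR-ABL1 and 9.61 ± 0.0528 and 12.5 ± 0.375 FPKM with it (SD, n = 4). Plod3, a lysyl hydroxylase gene, averaged 3.86 ± 0.353, 6.02 ± 0.240, 3.71 ± 0.259 and 5.08 ± 0.496 FPKM in the same order. They were chosen for likeness to Hyi, so these levels are a description with no test. Without null replicate 2 the r of the genes named for the 6 members ran from 0.87 (Coq5 with Hyi) to 0.98 (H2-K1 with Nlrp6).

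**Figure D4:**
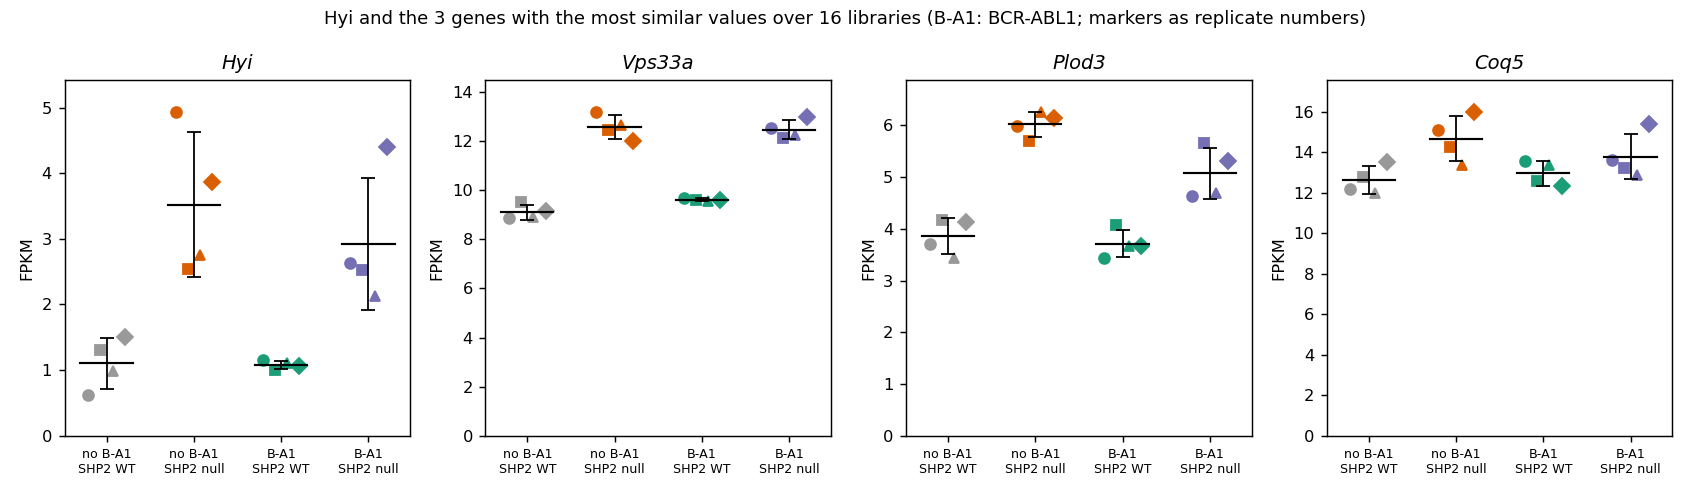
FPKM (vertical axes, from 0) of Hyi and of the 3 genes with the most similar values, in 16 libraries by group, where a point is a library, its shape the replicate number, the long line the mean and the bar 1 SD (n = 4). Hyi, Vps33a and Plod3 are higher in each null group than in its wild-type group with no overlap, and Coq5 overlaps.

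Of the 24 nearest tested neighbours, 2 on each side of each gene, 1 rose with SHP2 loss without BCR-ABL1 in limma and 0 fell. Of all genes tested, 1.02% were called higher in that comparison and 0.519% lower. With BCR-ABL1 0 neighbours passed in either direction, beside 0.176% of all genes called higher and 0.137% lower. The neighbour that rose was Acox3, a peroxisomal oxidase gene 36.7 kb from Htra3, with a log2 change of 0.33 (limma adjusted p = 0.0269). Without null replicate 2 it was 0.29 (0.0872), and the call was lost. Its log2 difference with BCR-ABL1 in wild-type cells was 0.29, in the direction of that of Htra3. Ifitm1, 38.0 kb from Nlrp6, had a log2 difference of 0.86 that did not pass (0.435).

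Genes related to the members by family or pathway were read from lists, and the members themselves were left out of the counts. Beside the counts of all these lists, 1.02% of all genes tested were called higher with SHP2 loss without BCR-ABL1 and 0.519% lower. With BCR-ABL1 the shares were 0.176% and 0.137%. In SHP2 loss without BCR-ABL1, 2 of 11 tested NLR and inflammasome genes rose and 0 fell (median log2 change 0.06, beside 0.02 over all genes). Gsdmd, which encodes the pore-forming protein gasdermin D, rose from 7.26 ± 0.927 to 10.8 ± 1.09 FPKM (SD, n = 4, limma adjusted p = 0.00472, and 0.0178 without null replicate 2), and Nlrc5, a regulator of class I histocompatibility genes, rose from 19.1 ± 0.726 to 24.3 ± 1.88 FPKM (0.0115 and 0.034). The partners of an NLRP6 inflammasome were at 4.14 and 4.35 FPKM for Pycard and 11.6 and 15.9 FPKM for Casp1, and did not pass (0.755 and 0.542). The cytokine genes Il1b and Il18 read at most 0.0248 and 0.691 FPKM in any library.

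Few relatives of the other members passed. Of the HtrA family Htra2 alone was tested besides Htra3 and stood at 20.9 and 20.6 FPKM, while Htra1 and Htra4 read at most 0.0328 and 0.152 FPKM. Of 12 tested F-BAR genes 0 passed in limma (4 at an unadjusted p below 0.05, median 0.15), with the most abundant, Fcho1, at 28.1 and 37.7 FPKM (log2 difference 0.43, limma adjusted p = 0.282), Arhgap4 at 23.2 and 25.9 FPKM and Pacsin2 at 14.6 and 16.3 FPKM. Of 3 tested STAR genes 0 passed (2 at an unadjusted p below 0.05, median -0.23), Khdrbs1 standing at 39.5 and 33.5 FPKM, Sf1 at 29.4 and 24.5 FPKM and Qk at 23.1 and 23.1 FPKM, and Khdrbs2 was listed at 0 in all libraries. Of 5 tested glyoxylate and hydroxypyruvate genes 0 passed (0 at an unadjusted p below 0.05, median -0.08), with Shmt2 at 68.5 and 68.3 FPKM, Shmt1 at 49 and 44.2 FPKM and Grhpr at 15.5 and 13.9 FPKM.

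Among 12 tested SNAREs and their binding proteins Stx2, a syntaxin gene, rose from 3.32 ± 0.319 to 4.81 ± 0.841 FPKM (SD, n = 4, limma adjusted p = 0.0245), a call lost without null replicate 2 (0.0595), and none fell (median 0.08). Among 14 tested TGF-beta genes Tgfbr2, the type II receptor gene, rose from 10.2 ± 1.82 to 20 ± 2.40 FPKM (limma adjusted p = 0.00577, and 0.0168 without that library) and none fell (median 0.09). Tgfbr2 was also the 1 gene of these lists that passed with SHP2 loss in BCR-ABL1 cells, from 12 ± 3 to 21.1 ± 2.74 FPKM (limma adjusted p = 0.0430). Refitting without null replicate 2 lost this call (0.0593), although that library is in neither group compared. The log2 change stayed at 0.79, and the SE from the shared spread went from 0.156 to 0.161. The other lists had 0 calls in that comparison (1 gene of the glyoxylate list and none of the HtrA, F-BAR, NLR, STAR or SNARE lists at an unadjusted p below 0.05), and in the interaction 0 genes of these lists passed in limma (1 F-BAR, 2 NLR and 1 STAR gene at an unadjusted p below 0.05).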

How the data were processed

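PolyA RNA of 16 libraries was prepared from 150 ng with the Illumina TruSeq Stranded mRNA kit and read for 100 cycles from both ends, per the labels' protocols. The authors deposited FPKM values, 1 column per library, with genes by symbol. Per the submitters' processing notes, Bowtie and Cufflinks were used with mm10 (GRCm38); settings, annotation and strand handling were not given in the sources used here. Repeated symbols among the 23758 entries were summed to 23279 symbols, and 16 of 16 per-library files held the same values. Depth is unknown: among genes below 0.05 FPKM, the commonest ratio between libraries held within 1% for 11% to 16.9%, too few to recover reads. Summed FPKM ran from 348923 to 443702.

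The 10210 genes that reached 1 FPKM in 4 or more libraries were fitted as log2(FPKM + 1) in limma 3.58.1 (R 4.3.3) with 4 group means and a trended variance, tested on simulated data first. Two-sided p-values were adjusted by Benjamini-Hochberg across the tested genes. Figures used Python 3.11.15 and matplotlib 3.10.9, and transcripts were compared with blastn 2.17.0. The members, lists and tests were chosen with earlier results of these data known. Named genes were the 6 members and Ptpn11, the 3 most alike genes per member without predicted, RIKEN, small RNA and V, D or J segment symbols, and, from each list, called genes, or else the 3 most abundant. Cma1, Cpa3, Kit, Acox3, Ifitm1, Il1b, Il18, Pycard, Casp1, Htra1, Htra4 and Khdrbs2 were named after their values were seen.

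The replicate numbers 0 to 3 may pair libraries. Deviations from the group means correlated between same-number libraries at 0.189 to 0.51 for SHP2 loss without BCR-ABL1 and at 0.218 to 0.783 with it. No correlation between libraries of different numbers is given for comparison. The main fit did not use this pairing, so its p-values ignore it, and the pairing entered as the replicate block alone. Alternatives were the pseudocount, the filter, the scaling, library weights, the groups fitted, the replicate block and leaving out each library.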

Additional observations from a re-analysis of the deposited data

Results flagged for a closer look

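Of the 24 sets of 4 libraries looked at (6 genes in 4 groups), 2 held a library far from the other 3 by Dixon's test, where chance gives about 1 in 20. Gas7 read 6.97 FPKM in null replicate 3 without BCR-ABL1, against 4.06 to 4.32 FPKM in the other 3 libraries of that group. Stxbp6 read 5.07 FPKM in null replicate 2 without BCR-ABL1, the library with the highest Lyz2, against 1.27 to 1.83 FPKM in the others. Without its outlying library the SHP2 effect was 0.82 for Gas7, which still passed in limma (adjusted p = 0.00276), and 0.50 for Stxbp6.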

How the results depend on the processing

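For SHP2 loss without BCR-ABL1, Htra3, Nlrp6 and Gas7 passed in 26 of 26 alternatives, with log2 changes of 1.61 to 2.63, 1.02 to 2.78 and 0.82 to 1.25 and adjusted p of 0.000116 to 0.0174, 0.000338 to 0.0459 and 0.000462 to 0.0475. Hyi passed in 25 of 26 (0.95 to 1.60), the exception being the fit on the groups compared only (1.09, adjusted p = 0.0595), a fit that uses fewer libraries. Stxbp6 passed in 0 of 26 (0.49 to 1.48). Khdrbs3 passed with pseudocount 0.1 (1.48), library weights (0.46) and the replicate block (0.48), and its adjusted p ran from 0.0321 to 0.264.

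For SHP2 loss with BCR-ABL1, Hyi passed with pseudocount 0.1 (1.30), median-ratio scaling (0.89) and the replicate block (0.88), and on leaving out null replicate 0 or wild-type replicate 0 without BCR-ABL1, with 0.72 to 0.98 over the 16 refits without a library and adjusted p of 0.0293 to 0.184 over all alternatives. The sign changed on leaving out single libraries for Gas7 (-0.11 to 0.045), Nlrp6 (-0.0028 to 0.21) and Stxbp6 (-0.073 to 0.30), none of which passed. No interaction of a member passed in any of 24 alternatives, its fit on the groups compared being the main one.

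On leaving out single libraries the Htra3 difference with BCR-ABL1 ran from 0.30 to 0.85, and the interactions from -1.56 to -1.02 for Htra3, -1.08 to -0.86 for Gas7, -1.43 to -1.07 for Nlrp6, -0.97 to -0.39 for Stxbp6, -0.41 to -0.25 for Khdrbs3 and -0.37 to -0.07 for Hyi.

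Over all genes, 157 passed for SHP2 loss without BCR-ABL1, and 34 with the groups compared only, 644 with library weights, 587 with the replicate block and 80 to 164 on leaving out a library. With BCR-ABL1 32 passed, and 20 to 35 on leaving out a library. The interaction had 0 calls, with 3 with no filter, 2 with library weights and 0 to 1 on leaving out a library. The replicate block changed no call of a member other than those of Khdrbs3 and Hyi given above. The cause of these shifts was not tested. With depth unknown, values below 1 FPKM have no known counting error, as for Khdrbs3 without BCR-ABL1 and Nlrp6 in wild-type cells without it.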
